A study of Mus musculus with 4 samples.

Results

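A set of 389 stretches of open chromatin was described that had signal in mouse 3T3 fibroblasts lacking Rela and almost none in their wild-type counterparts, and to which the authors had assigned no gene. The members were chosen by 3 criteria on the Rela table: no gene identifier, a normalized signal of 35 or more in the Rela knockout, and a normalized signal of 2 or less in wild type. They made up 389 of the 18304 unassigned regions (2.13%), in a table of 28445 regions. Both signal columns chose the members, so their levels and ratios are a description and support nothing. Their positions and widths, and the regions of a second table from other cells, were not used by the rule. Signals of the regions around them are other rows of the same pair of columns, and are therefore also given as a description.

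Accessibility was measured by ATAC-seq, in which the Tn5 transposase inserts adapters into open DNA, from 50000 cells per library. The cells described here were Rela knockout 3T3 cells, an embryo fibroblast line, against 3T3 cells that were wild type for Rela. A second pair, Kindlin-2 knockout kidney fibroblasts and kidney fibroblasts with floxed Kindlin-2 alleles, served only to look up the same positions. All cells were at passages 15 to 20, and the sources used here do not say how the genes were knocked out, from how many clones or in which strain. Each genotype had 1 column of signal, for which the design text gives 2 biological replicates, and how these were combined is not stated. No test between genotypes could be made, and no difference below has a replicate check. A genotype difference and a difference between separately grown cell lines cannot be told apart.

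Rela encodes p65, a subunit of the transcription factor NF-kB, which binds promoters and distant enhancers after inflammatory signals. Regions far from any gene start are mostly enhancers, insulators or other elements that transcription factors keep free of nucleosomes, and which of them are open is a hallmark of a cell's type and history. In the Rela table a region with a gene lies at most 7590 bp from that gene's start, and a region farther away has none, also where it lies within the body of a gene.

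The columns had been normalized within their table, so their similar size is no check of depth. The signal summed to 1458609 in the Rela knockout and 1386832 in wild type, with medians of 35 and 34 per region. The Rela gene itself had 1 region, 52 bp from its start, with a signal of 27 in the knockout and 21 in wild type; an open promoter says nothing of whether the protein is made, so this does not check the genotype. Of 14 fibroblast markers, 8 had a promoter region, with a summed signal of 447 in the Rela knockout and 351 in wild type. They went both ways. S100a4, a calcium-binding protein gene, had 133 in the knockout and 46 in wild type, the largest gap among the 8. Fn1 with 84 and 55, Fbln1 with 29 and 12 and Postn with 22 and 10, each in the same order, were also higher in the knockout. Lower there were the collagen gene Col1a2 with 29 and 51, the growth factor receptor gene Pdgfrb with 34 and 44, and the matrix gene Dpt with 8 and 23. Vim, an intermediate filament gene of fibroblasts, had 108 in the knockout and 110 in wild type, and Col1a1, Col3a1, Pdgfra and Thy1 had no promoter region. Among markers of other cells, 2 of 5 leukocyte genes had a region, summing to 201 in the knockout and 18 in wild type: Cd53, a leukocyte tetraspanin, had 155 and 10, and Laptm5 had 46 and 8 in the same order, while Ptprc, the defining leukocyte gene, had none. Krt19 was the only 1 of 6 epithelial markers with a region, at 19 in the knockout and 8 in wild type. The neural markers Map2 and Tubb3, 2 of 4, summed to 95 in the knockout and 84 in wild type. None of 5 endothelial and 4 skeletal muscle markers had a region. The part of such signals in the results below was not tested.

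Of the 389 members, 2 overlapped a RefSeq promoter window, which runs from 250 bases before to 50 bases after a gene's start. These windows are shown together with 3 windows of gene-assigned regions that lay nearest to members and were themselves more open in the Rela knockout. Sequences are from RefSeq, build GRCm38.p6 (the assembly that the authors' mm10 coordinates refer to), 5′ to 3′ on the strand of the gene. Capitals mark the bases inside the deposited region, and since the tables do not say whether starts count from 0 or 1, the edge may be off by 1 base.
Gm30843, chr6:141875820-141876119, plus strand: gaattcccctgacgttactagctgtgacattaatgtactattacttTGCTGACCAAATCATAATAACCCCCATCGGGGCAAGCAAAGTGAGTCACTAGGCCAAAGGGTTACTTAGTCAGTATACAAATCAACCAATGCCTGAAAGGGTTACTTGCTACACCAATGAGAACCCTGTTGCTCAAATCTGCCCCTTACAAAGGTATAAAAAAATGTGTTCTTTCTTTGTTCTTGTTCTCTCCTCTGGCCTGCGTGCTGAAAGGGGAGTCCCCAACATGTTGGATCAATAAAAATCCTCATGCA
LOC108167368, chr12:20614713-20615012, plus strand: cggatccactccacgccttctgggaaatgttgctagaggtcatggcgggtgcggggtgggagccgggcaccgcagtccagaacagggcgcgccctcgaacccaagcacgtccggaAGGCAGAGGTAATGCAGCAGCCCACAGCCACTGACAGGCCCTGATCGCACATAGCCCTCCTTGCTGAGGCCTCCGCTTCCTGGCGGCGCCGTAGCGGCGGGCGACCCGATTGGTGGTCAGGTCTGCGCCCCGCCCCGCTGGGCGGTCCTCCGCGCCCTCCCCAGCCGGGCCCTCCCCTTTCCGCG
Gm5784, chr12:19387620-19387919, plus strand: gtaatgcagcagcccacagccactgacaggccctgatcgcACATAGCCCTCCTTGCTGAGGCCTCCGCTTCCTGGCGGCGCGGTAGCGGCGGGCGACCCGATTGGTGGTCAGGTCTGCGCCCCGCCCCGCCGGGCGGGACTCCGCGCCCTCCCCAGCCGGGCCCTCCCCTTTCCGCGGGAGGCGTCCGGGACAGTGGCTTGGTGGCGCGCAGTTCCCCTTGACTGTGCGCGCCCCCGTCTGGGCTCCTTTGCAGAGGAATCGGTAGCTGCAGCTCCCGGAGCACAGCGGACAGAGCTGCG
Meis1, chr11:19018920-19019219, minus strand: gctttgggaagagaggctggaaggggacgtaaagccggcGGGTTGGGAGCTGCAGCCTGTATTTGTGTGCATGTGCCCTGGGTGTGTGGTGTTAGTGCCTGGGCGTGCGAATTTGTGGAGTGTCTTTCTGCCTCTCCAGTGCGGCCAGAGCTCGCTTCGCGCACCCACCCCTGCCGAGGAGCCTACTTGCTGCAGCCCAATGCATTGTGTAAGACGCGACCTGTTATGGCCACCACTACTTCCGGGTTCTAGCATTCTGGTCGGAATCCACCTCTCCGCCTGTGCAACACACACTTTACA
Kank1, chr19:25236725-25237024, plus strand: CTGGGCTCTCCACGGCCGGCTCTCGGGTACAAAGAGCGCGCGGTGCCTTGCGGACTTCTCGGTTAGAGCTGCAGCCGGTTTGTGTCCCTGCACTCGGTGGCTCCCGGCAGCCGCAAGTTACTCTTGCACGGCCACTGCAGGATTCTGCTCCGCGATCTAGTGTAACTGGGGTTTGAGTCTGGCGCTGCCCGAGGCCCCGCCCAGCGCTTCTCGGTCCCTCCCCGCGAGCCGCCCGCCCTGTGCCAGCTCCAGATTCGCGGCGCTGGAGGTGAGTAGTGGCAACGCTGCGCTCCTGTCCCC

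The Gm30843 window, at an uncharacterised RefSeq non-coding RNA gene, had 254 of its 300 bases inside the member chr6:141875866-141876180. That member had a signal of 41 in the Rela knockout and 0 in wild type, and the nearest gene-assigned region, of the organic anion transporter gene Slco1a6, lay 334 kb away with 15 in the knockout and 18 in wild type. Its GC share was 42.7%, with 3 CpG. The window held TGACTCA, the core letters bound by AP-1, as TGAGTCA at bases 88 to 94 counted from the 5′ end. It also held CCAAT, the NF-Y letters, at 132 to 136 and 160 to 164, and TTGCNNAA, the core of C/EBP sites, at 175 to 182. Each motif was searched on both strands. TGACTCA occurred in 5.205% of all 32817 promoter windows, CCAAT in 37.4% and TTGCNNAA in 10.8%. A match is a description of the letters only.

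The window at LOC108167368 was of another kind, with 70.3% GC and 29 CpG. Its 185 capital bases lay in the member chr12:20614828-20615089, which had 42 in the Rela knockout and 0 in wild type. It held CCAAT once and GGGCGG, the core of Sp1 sites, at 2 places, a motif found in 35.6% of all windows. Over the 175 bases that can be aligned, 171 (97.7%) were identical to the window of Gm5784, about a megabase away on the same chromosome. The region at Gm5784, chr12:19387660-19388009, had 53 in the knockout and 12 in wild type. Reads from such near-identical copies may be split between them or placed at the wrong copy, so the signal of this member is uncertain.

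Among the 28 promoter windows under a gene-assigned region that met the members' own signal thresholds, 15 held CCAAT (53.6%), against 44.8% of the 7333 windows under any region of the Rela table. GGGCGG was in 16 of the 28 (57.1%), against 69.9% of those 7333. TGACTCA was in 0 of the 28, against 4.64%, and an NF-kB site motif in 0 of the 28, against 0.436%. No match says only that these letters are not in these windows. The members' own sequences, beyond the 2 above, were not analysed here.

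The strength of the members was modest. In the Rela knockout their signal had a lowest value of 35, a median of 51 and a highest value of 213, and in wild type it was 0 in 145 members (37.3%), 1 in 175 (45.0%) and 2 in 69 (17.7%). The median log2 ratio, with a pseudocount of 1, was 5.17. Together the members held 1.60% of all signal in the Rela knockout and 0.0226% in wild type. The median in the knockout was 52 where wild type had 0, 51 where it had 1 and 51 where it had 2, and signals of 100 or more were found in 6 of 145, 19 of 175 and 6 of 69 of these members. The rule by itself fixes that the genotypes do not overlap in any member. By way of scale, 98 gene-assigned regions (0.966%) met the same signal thresholds, and 181 unassigned regions (0.989%) met them with the genotypes exchanged, with 35 or more in wild type and 2 or less in the knockout; these 181 are called the wild-type-only set below.

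A signal is not a read count, but its low values come in steps, from which the worth of 1 count was estimated at 0.949 signal units in the Rela knockout and 0.683 in wild type. By this estimate a wild-type signal of 0 would stand for 0 counts, 1 for 1 or 2 counts, and 2 for 3 counts. The steps were fitted to values from 2 to 60, so the reading of 0 and 1 is extrapolated. The signal is background-corrected, so 0 need not mean that no read was there. By the same steps the columns held 1.537e+06 implied counts in the Rela knockout and 2.0305e+06 in wild type. Equal signals in the 2 columns, and so the exchanged thresholds of the wild-type-only set, do not stand for equal counts. The 95% intervals of ratios below are exact (Clopper-Pearson) on these implied counts and cover counting error only. A wild-type signal of 1 is taken as 1 count, and the interval with 2 counts is given beside it.

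The strongest member was chr15:47858721-47859232, with 213 in the Rela knockout and 2 in wild type. This is a ratio of 106.5 (35.05 to 507). It lies inside the body of Csmd3, a gene for a large membrane protein with CUB and sushi domains, and its nearest gene-assigned region was that of an unnamed small nuclear RNA gene 688 kb away, with 85 in the knockout and 10 in wild type. Next came chr6:137932593-137933153, with 212 in the knockout and 1 in wild type (ratio 212, interval 55.0 to 12293, or 42.4 to 1287 with 2 wild-type counts). It lies outside protein-coding gene bodies, 178 kb from the region of Dera, an enzyme of deoxyribose breakdown, which had 58 in the knockout and 54 in wild type. The strongest member with no wild-type signal was chr18:69415531-69416022, inside Tcf4, which encodes an E-protein transcription factor. It had 161 in the knockout and 0 in wild type, at least 78.6-fold higher when 3 counts are taken as the floor for wild type; the lower limit that counts the error of both values is 63.3. The nearest gene-assigned region was that of Tcf4 itself, 71.5 kb away, and went the other way, with 24 in the knockout and 61 in wild type (log2 ratio -1.31).

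The next members by signal were chr19:25230668-25231264, with 147 in the Rela knockout and 1 in wild type (interval of the ratio 38.1 to 8561, or 29.3 to 897 with 2 wild-type counts), and chr3:77489247-77490838, with 145 and 1 in the same order. The chromosome 19 member lay 5.87 kb from the region of Kank1, a gene for an adaptor of the cell cortex, which had 80 in the knockout and 3 in wild type. The chromosome 3 member lay 1533 kb from the nearest gene-assigned region, that of the Golgi membrane protein gene Golim4, with 351 in the knockout and 234 in wild type. The sixth and seventh, at 140 in the knockout, were chr15:90109440-90109917, with 1 in wild type, and chr5:14728690-14729252, with 2 in wild type and inside Pclo, a presynaptic scaffold gene. The last of the 10 strongest were chr12:7074106-7074662 with 139 in the knockout and 1 in wild type, chr5:95812940-95813539 with 129 and 1, and chr16:76225899-76226313 with 129 and 2. The nearest regions with a named gene among these differed by less than 2-fold: Alg10b, a glucosyltransferase gene 115 kb from the chromosome 15 member, had 202 in the knockout and 236 in wild type, and Cnot6l, a deadenylase gene 349.6 kb from the second chromosome 5 member, had 140 in the knockout and 74 in wild type.

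In all, 31 members had a signal of 100 or more in the Rela knockout. They lay on 14 chromosomes and had a median width of 511 bp, against 363 bp for the 358 weaker members.

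**Figure D1:**
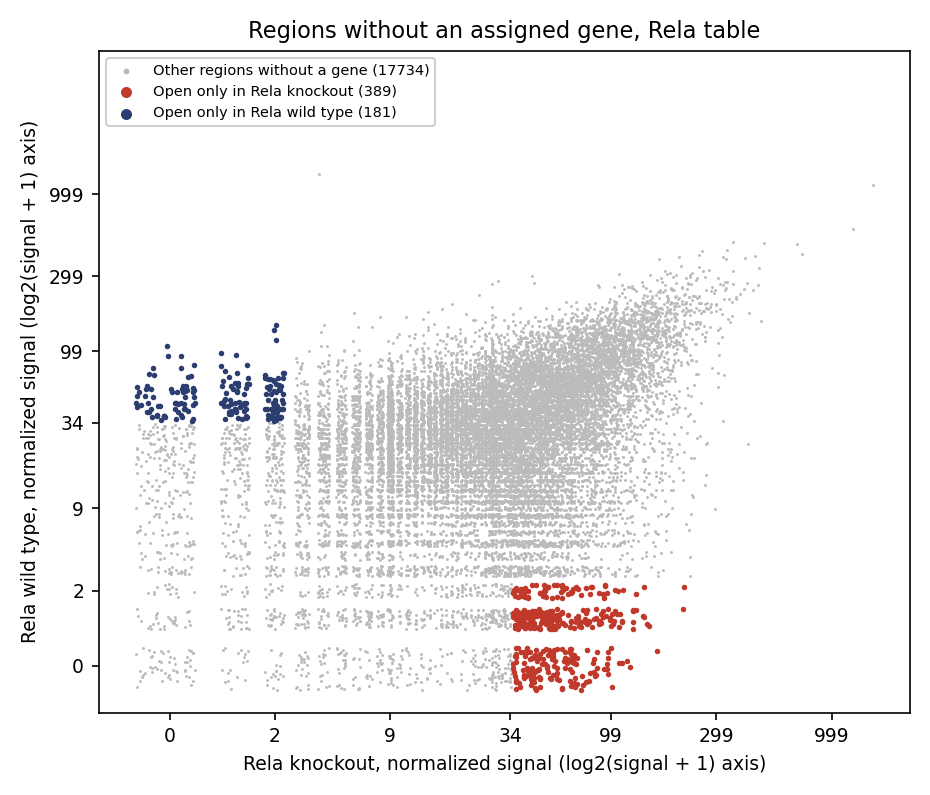
Normalized signal of the unassigned regions, Rela knockout against wild type, with the 389 members in red and the 181 of the wild-type-only set in blue, on log2(signal + 1) axes with a small random shift to separate points. Members lie along the knockout edge of the cloud, with 35 to 213 in the knockout and 0 to 2 in wild type.

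The thresholds cut through a continuum. At the knockout threshold, 9 members had exactly 35 and 68 had 35 to 39, while 20 unassigned regions with the same low wild-type signal had 34 and 86 had 30 to 34. On the side of wild type, 69 members had a signal of 2, whereas 181 unassigned regions with 35 or more in the knockout were left out with a wild-type signal of 3. The strongest just inside had 213, 140, 129, 112 and 106 in the knockout at 2 in wild type. The strongest just outside had 228, 171, 163, 162 and 151 in the knockout at 3 in wild type, and the first of them, chr3:138225033-138226341, would have been the strongest of all. The 5 regions listed just inside the knockout threshold, 3 of them at 0 and the others at 1 in wild type, differ by a single unit from the 5 listed just outside, which had 34 in the knockout and 0 to 2 in wild type.

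The members were narrow. Their width had a lowest value of 196 bp, a median of 375 bp and a highest value of 1591 bp, and the middle of the distribution ran from 314 to 454 bp between the quartiles. The wild-type-only set had a median of 389 bp and the other unassigned regions one of 368 bp; those with a mean signal of 17.5 to 107.5, the range of the members, had 396 bp. Wider were the 4749 unassigned regions with 35 or more in both genotypes (median 542 bp) and the gene-assigned regions (478 bp). The widest members were chr3:77489247-77490838 (1591 bp), chr12:68202634-68203727 (1093 bp, with 106 in the knockout and 1 in wild type) and chr3:33440476-33441430 (954 bp, with 91 and 1 in the same order). The narrowest were chr19:40685208-40685404, inside the ectonucleotidase gene Entpd1, with 37 in the knockout and 1 in wild type, and chr5:62924696-62924892, with 39 and 2, both of 196 bp. Next were chr1:30787257-30787480, with 43 and 1, and chr15:86456473-86456696, with 38 and 2, both of 223 bp.

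Members were found on all 20 chromosomes in the table, 1 to 19 and X, but unevenly. Chromosome 12 held 33, which was 4.64% of its 711 unassigned regions (exact 95% interval 3.22 to 6.46). Chromosome X followed with 13 of 380 (3.42%, 1.83 to 5.78) and chromosome 3 with 39 of 1196 (3.26%, 2.33 to 4.43). The lowest shares were on chromosome 13, with 5 of 886 (0.564%, 0.183 to 1.31), and chromosome 17, with 6 of 835 (0.719%, 0.264 to 1.56). The intervals of chromosomes 12 and 3 lie above those of 13 and 17, but they treat neighbouring regions as independent.

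The wild-type-only set was spread differently on some chromosomes, but not on all. Beside its 5 members, chromosome 13 held 23 regions of that set (2.60% of unassigned regions), and beside its 6 members chromosome 17 held 12 (1.44%). Beside its 39 members chromosome 3 held 2 (0.167%), and beside its 30 members chromosome 8 held 5 (0.392%). The gene-assigned regions of these chromosomes moved in the same sense: their median log2 ratio was 0.52 on chromosome 3 and 0.61 on chromosome 8, and -0.63 on chromosome 13 and -0.53 on chromosome 17. On chromosome 12, where the share of members was highest, the median was 0.12, and on X it was 0. Copy number was not measured here, and its part in these chromosome-wide shifts, and theirs in the members' counts, was not tested.

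**Figure D2:**
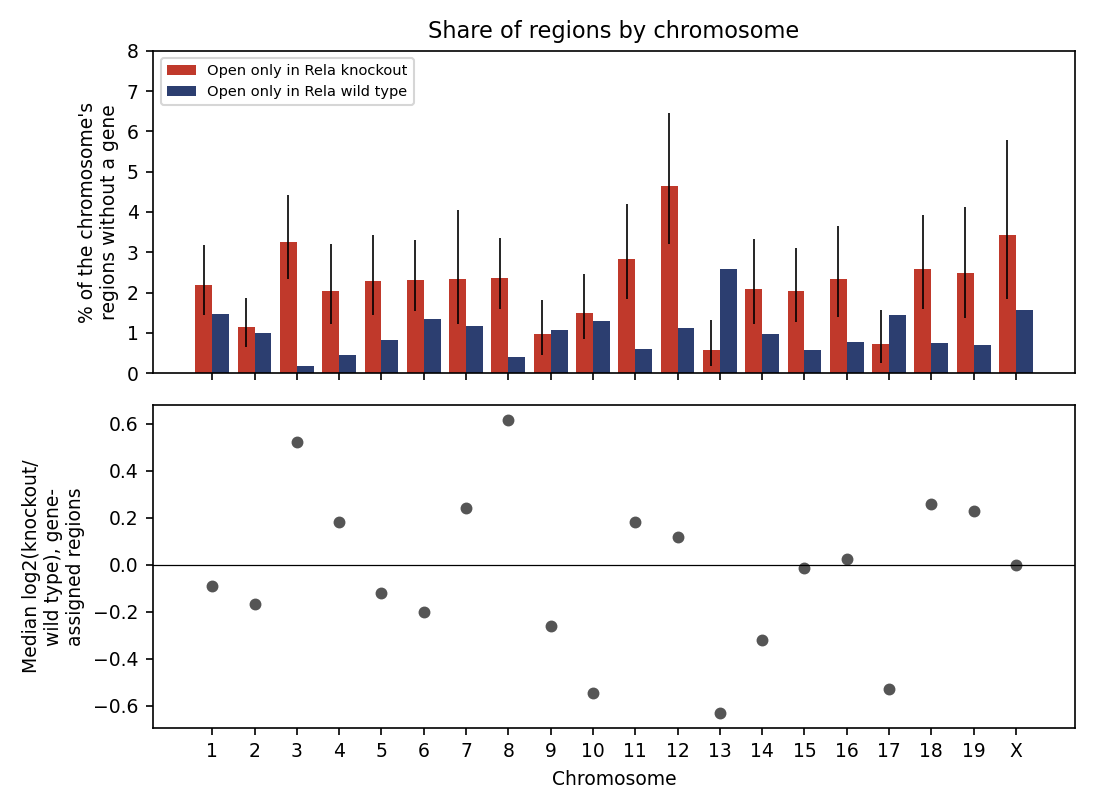
Members and wild-type-only regions as a percentage of unassigned regions on each chromosome (bars from 0, lines the exact 95% interval for members), above the median log2 ratio (Rela knockout over wild type) of its gene-assigned regions. Chromosome 12 has the highest share of members, 4.64%, and chromosome 13 the lowest, 0.564%.

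Some members lay close together. With centres at most 100 kb apart taken as a cluster, 70 of 389 members (17.99%, 14.3 to 22.2) fell into 32 clusters, 26 of 2 members and 6 of 3. Within 20 kb of another member lay 6.68%, and within 1000 kb lay 50.1%. In the wild-type-only set, 10 of 181 (5.52%, 2.68 to 9.93) lay within 100 kb of another of that set, but a smaller set is also a sparser one and the values cannot be set against each other directly. Both intervals treat regions as independent, although a region counts as clustered only because another does. The distance from a member to the next was 995 kb at the median, from 2.16 kb at the lowest to 48902 kb at the highest. In 25 of the 32 clusters no other region of the table lay between the ends, and over all clusters 10 other regions did. In 14 clusters all members lay within the body of 1 protein-coding gene.

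Of the clusters of 3, that with the most signal was chr14:13228858-13333032, 104 kb long. Its members had 61, 36 and 98 in the Rela knockout and 0, 0 and 1 in wild type. An unassigned region between them had 13 in the knockout and 1 in wild type, and another, 8 kb beyond the last member and just too strong in wild type for the rule, had 217 in the knockout and 7 in wild type. The last member lies inside Synpr, which encodes a synaptic vesicle membrane protein. Farther out the regions were of several kinds: 6 of the 12 other regions within 300 kb of the cluster's centre passed 2-fold in favour of the knockout, while a region toward one edge had 82 in the knockout and 91 in wild type that at the other edge had 36 in both, and 1 at 270.4 kb had 13 in the knockout and 50 in wild type.

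A second cluster, chr8:23989530-24046201, lay inside Zmat4, a zinc finger gene with a body of 415.8 kb. Its 3 members had 36, 100 and 44 in the Rela knockout and 1, 0 and 1 in wild type. A further member, with 63 in the knockout and 2 in wild type, lay nearby, within a group of 4 members spanning 238 kb. All 3 other regions within 300 kb of the cluster's centre passed 2-fold in the same direction, with 143, 162 and 48 there and 43, 3 and 10 in wild type.

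The cluster chr11:66359678-66433712 lay inside Shisa6, which encodes an auxiliary protein of AMPA-type glutamate receptors. Its members had 61, 39 and 59 in the knockout and 0 in wild type throughout. The neighbouring regions were as one-sided, with 33, 32 and 9 in the knockout and 0, 1 and 2 in wild type; the first 2 miss the thresholds by a few units in the knockout alone. No region within 300 kb of this cluster's centre had a wild-type signal above 2.

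Another cluster, chr19:26938839-26987595, lay outside protein-coding genes, with 67, 57 and 52 in the knockout and 1 in wild type at each member. The gene-assigned region nearest to it was that of Vldlr, a lipoprotein and reelin receptor gene, 254 kb from the cluster's centre, with 49 in the knockout and 25 in wild type. The fifth, chr7:40248558-40321586, lay 704 kb from the nearest gene-assigned region, with 47, 60 and 49 in the knockout and 0, 0 and 1 in wild type. The sixth, chr6:56222180-56308328 inside the phosphodiesterase gene Pde1c, with 45, 49 and 41 in the knockout and 0, 1 and 1 in wild type, falls outside the number of clusters set for naming and is given to complete the 6.

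**Figure D3:**
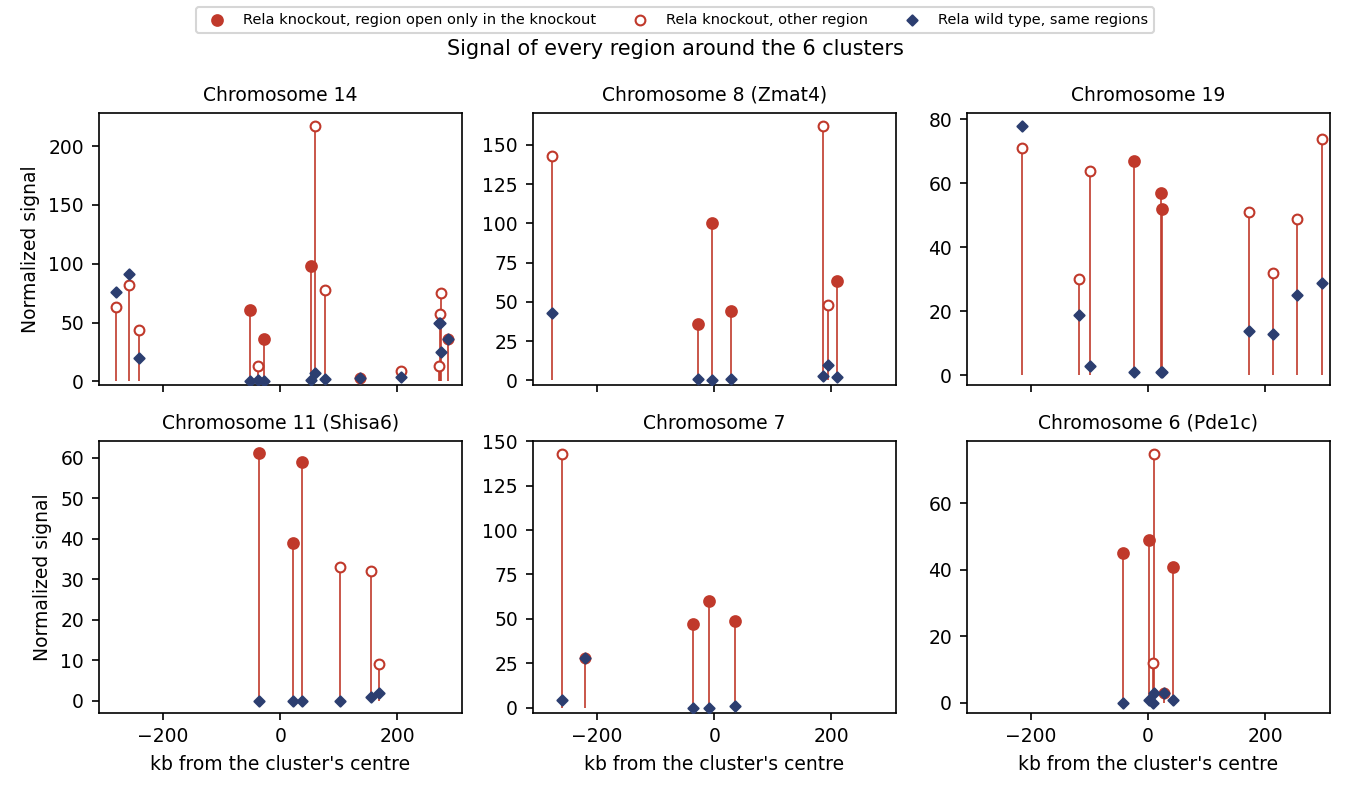
Signal of every table region within 300 kb of the centre of each of the 6 clusters of 3 members, in the Rela knockout (red, filled for members) and in wild type (blue), by distance from the centre in kb, each panel with its own signal axis. Members stand between 36 and 100 in the knockout, with 0 to 2 in wild type, and the Shisa6 cluster has no wild-type signal above 2 in its window.

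The largest gathering at a wider scale was at Nova1, which encodes an RNA-binding splicing regulator of neurons. Within chr12:46327800-47117939, a stretch of 790.1 kb, 6 members had 39, 65, 106, 51, 52 and 44 in the Rela knockout, and 0, 2, 2, 0, 0 and 1 in wild type. The nearest gene-assigned region of all 6 was that of Nova1, chr12:46819348-46819773, 786 bp from the gene's start, with 54 in the knockout and 2 in wild type. This is a log2 ratio of 4.20. The members of 65 and 106 lie in the Nova1 body, and the distances to the Nova1 region were 492, 73.2, 38.0, 119.8, 124 and 298 kb. The region at the gene's start and members on both sides of it thus had their signal in the knockout column. With members up to 1000 kb apart chained together, 194 members stood alone and the others fell into 48 groups of 2, 16 of 3, 10 of 4, 1 of 5 on chromosome X and the 1 of 6 at Nova1.

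Gene bodies held 180 members (46.3%) when protein-coding genes were counted and 208 (53.5%) when all RefSeq genes were. For the wild-type-only set these shares were 42.5% and 52.5%, and for the other unassigned regions 49.3% and 58.5%. Exons and introns were not analysed here. The 180 members lay in 161 genes, of which 19 held at least 2 members, and the genes were long. Taking the longest gene around each region, the median body was 210.2 kb for members, 191 kb for the wild-type-only set and 148 kb for other unassigned regions, and 51.1%, 46.8% and 39.98% lay in bodies over 200 kb. Besides Pde1c, Shisa6 and Zmat4, the gene with 3 members was Rbfox1, a splicing regulator of neurons and muscle with a body of 1528 kb that held 16 unassigned regions in all. Its members had 65, 49 and 72 in the knockout and 0, 2 and 0 in wild type. Among genes with 2 members were Cntnap2, a neurexin-family adhesion gene, with 41 and 75 in the knockout and 2 and 1 in wild type, and Csmd3, where a member of 41 in the knockout and 1 in wild type stood beside the strongest of all.

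For comparison with genes, each member was given the nearest gene-assigned region by centre on the same chromosome. The median distance was 183 kb, from 4.42 to 3293 kb, against 123 kb for the wild-type-only set and 78.5 kb for the other unassigned regions. Within 100 kb of a gene-assigned region lay 129 members (33.2%), against 44.8% of the wild-type-only set and 56.6% of other unassigned regions. Within 10 kb lay 10 members (2.57%), against 3.87% of the wild-type-only set and 6.64% of other unassigned regions. Within 1000 kb lay 352 members (90.5%), against 98.9% and 97.7% in the same order, and 37 members had none.

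The nearest gene-assigned region was at least 2-fold higher in the Rela knockout for 139 of 389 members (35.7%, 31.0 to 40.7) and at least 2-fold lower for 36 (9.25%). Of all gene-assigned regions tested in the table, 14.8% were called higher and 14.8% lower. The nearest regions of other unassigned regions were higher for 16.7% and lower for 15.3%, and those of the wild-type-only set higher for 11.0% and lower for 21.5%. The median log2 ratio of the members' nearest regions was 0.56, against -0.03 over all gene-assigned regions. Weighted by the members' own chromosomes, 16.7% of gene-assigned regions were called higher.

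The share showed no steady order with distance. It was 27 of 83 (32.5%) for members up to 50 kb from the region, 21 of 46 (45.7%) from 50 to 100 kb, 64 of 182 (35.2%) from 100 to 500 kb and 27 of 78 (34.6%) beyond. Several members share a nearest region: 389 members had 318 distinct ones, of which 267 were nearest to 1 member and 1, that of Nova1, to 6. Counting each once, 102 of 318 (32.1%) were higher, 32 (10.1%) were lower, and 18 (5.66%) met the members' own thresholds of 35 or more in the knockout and 2 or less in wild type, against 0.966% of all gene-assigned regions. When the nearest promoter region of a protein-coding gene was taken instead, 84 (21.6%) were higher and 28 (7.198%) lower, against 11.1% and 11.6% of all such promoters. Of 386 members with a gene-assigned region on each side, 52 (13.5%) had both higher, 134 (34.7%) had 1 higher and 200 (51.8%) had neither. The same shares were not computed for other regions, so these flank counts do not set the members apart.

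**Figure D4:**
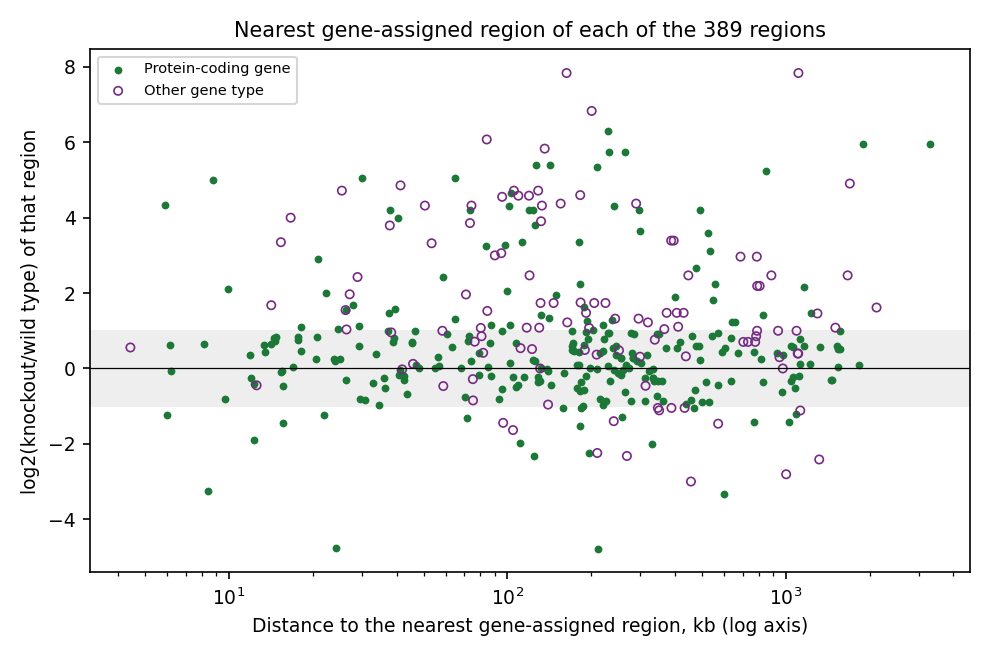
Log2 ratio (Rela knockout over wild type) of the nearest gene-assigned region of each member, against its distance in kb on a log axis. Filled points are regions of protein-coding genes and open points those of other genes. The edges of the grey band mark a 2-fold difference, with 139 points on or above its upper edge and 36 on or below its lower edge.

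Regions of any kind near a member leaned the same way. Within 100 kb of a member lay 772 regions that were not members, with 337 (43.7%) called higher in the knockout and 81 (10.5%) lower, against 22.4% and 21.0% of all regions in the table. The 548 unassigned among them were higher in 49.1% and lower in 12.04%, against 26.6% and 24.4% of all unassigned regions, and the 224 with a gene were higher in 30.4% and lower in 6.70%. The median signal of all 772 was 44 in the knockout and 23 in wild type. The surroundings were not closed in wild type in every case. Another region of the table lay within 100 kb of 302 of the 389 members (77.6%). For 195 members (50.1% of the 389) at least 1 such region had a wild-type signal of 10 or more. The 389 include members with no other region within 100 kb. These shares were not computed for other unassigned regions or the wild-type-only set, so they do not set the members apart.

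Among genes whose region lay within 100 kb of a member, the highest log2 ratio of a named gene was that of Meis1, a homeodomain transcription factor active in development and blood stem cells. Its region chr11:19018859-19019180, 35 bp from the gene's start, had 32 in the Rela knockout and 0 in wild type, which is 5.04 on the log2 scale. Members with 44 and 59 in the knockout and 1 in wild type each lie inside the Meis1 body, the nearer 30.0 kb from the promoter region. In the Meis1 window printed above, 261 of 300 bases lie in the region, with a CCAAT and a TGTGGT, the core of Runx sites. Klrc2, an activating receptor gene of natural killer cells, had 31 in the knockout and 0 in wild type at 8.75 kb. Kank1 had 80 in the knockout and 3 in wild type (log2 ratio 4.34), and its printed window, of 67.3% GC and wholly inside the region, held GGGCGG at 3 places, 2 of them overlapping. Nova1 followed with 4.20.

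Further down the order by log2 ratio, Mycn, a growth-promoting transcription factor gene, had 15 in the knockout and 0 in wild type at 40.4 kb. Tspan8, a tetraspanin gene, had 28 and 2 in the same order, at a region 2509 bp from its start, and Ano3, an anoctamin gene, 14 and 1. Ppp4r4, a protein phosphatase 4 subunit gene, had 106 in the knockout and 19 in wild type, with an interval of the ratio from 3.65 to 8.74. Sdr16c5, a retinol dehydrogenase gene, had 42 in the knockout and 9 in wild type, at a region 3372 bp from its start, and Gm5784 had 53 and 12. An unnamed processed pseudogene on chromosome 1 ranked above all of these, with 134 in the knockout and 1 in wild type.

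Other genes near members moved in the opposite sense. Osbp, an oxysterol-binding protein gene, had 2 in the Rela knockout and 81 in wild type at 24.2 kb from a member (log2 ratio -4.77). That region lies 4273 bp from the start of Osbp, outside the promoter limit. Ctxn3 had 1 in the knockout and 18 in wild type at 8.43 kb, Havcr2, the gene of the immune checkpoint receptor TIM-3, 3 and 14, and Lpar6, a lysophosphatidic acid receptor gene, 13 and 37. Brip1, a DNA repair helicase gene, had 10 in the knockout and 25 in wild type 5.97 kb from a member, and Plcxd2 also had 10 and 25. The last 3 of the lowest 10, Efcab11 (34 in the knockout and 67 in wild type), Gemin6, a subunit gene of the complex that assembles spliceosomal RNPs (53 and 96), and the DNA damage ubiquitin ligase gene Rad18 (71 and 126), were less than 2-fold lower.

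Beyond 100 kb, genes chosen here after their values were seen had regions as one-sided as the members. Sorcs1, a sortilin-family receptor gene 230.2 kb away, had 78 in the knockout and 0 in wild type, and Epha5, an ephrin receptor gene, had 61 and 0. Wbscr17, listed by RefSeq as Galnt17 and encoding a glycosyltransferase-like protein, had 83 in the knockout and 1 in wild type, and its body holds members of 112 and 65 in the knockout with 2 and 0 in wild type. Xkr4 had 53 and 0, Cdh10, a cadherin gene, 40 and 0, and Cmpk2, an interferon-inducible nucleotide kinase gene, 49 and 1.

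Lists of genes were looked up among the 318 nearest regions. Of the cell adhesion list 5 regions were nearest to members, with 3 called higher, 0 lower and a median log2 ratio of 2.15. Most were far away: the closest member lay 1897 kb from the region of Epha5, 210 kb from Cdh10, 1163 kb from Pcdh10, 771 kb from Itgb8 and 57.0 kb from Pcdh18. The first 3 of these were the ones called higher. In the whole table the list had 48 regions, 11 higher and 8 lower, with a median of 0.26. Of developmental transcription factors 3 were nearest, Meis1, Foxp2 and Msx1, with 1 higher and 1 lower, against 13 higher and 11 lower of 49 in the table. Of the extracellular matrix list 2 were nearest, Mmp2 and Fbn2, with 1 higher and 0 lower, against 8 higher and 15 lower of 45 in the table, where the median was -0.49. No NF-kB target was nearest to any member, and the 24 regions of that list in the table had 2 higher and 5 lower, with a median of -0.26. Counts this small do not set a list apart.

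At the positions of the members, the kidney fibroblasts of the Kindlin-2 pair had a region in 15 of 389 cases (3.86%, 2.17 to 6.28), with an overlap of at least 1 bp. The Kindlin-2 table holds 5727 regions, against 28445 in the Rela table, and a position without a region there is not shown to be closed. In the wild-type-only set 5 of 181 (2.76%) overlapped, of other unassigned regions 10.9%, of unassigned regions with 35 or more in both genotypes 27.0% and of gene-assigned regions 25.8%. Other unassigned regions in the members' range of mean signal also overlapped in 10.9%. None of the 15 regions of the Kindlin-2 table had a gene assigned. Levels of the 2 tables were normalized apart and were not set against each other.

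The 15 regions had 7 to 33 in Kindlin-2 knockout cells and 1 to 31 in floxed cells, with medians of 15 and 10. Of these, 5 passed 2-fold upward in the Kindlin-2 knockout and 0 downward, where 22.8% of all unassigned regions of that table were higher and 7.65% lower, and of all its regions 16.2% were higher and 9.27% lower. Their median log2 ratio was 0.24, against 0.22 over all 2773 unassigned regions there. The strongest overlapped the member at chr13:9032133-9032461, 36.1 kb from the region of the ribosome biogenesis GTPase gene Gtpbp4. It had 33 in Kindlin-2 knockout and 31 in floxed cells, where the member itself had 43 in the Rela knockout and 1 in Rela wild type. Next was chr18:38882292-38882589, inside Fgf1 and Arhgap26, with 32 in Kindlin-2 knockout and 27 in floxed cells, and 53 in the Rela knockout and 2 in Rela wild type. Both positions thus had signal in kidney fibroblasts of either Kindlin-2 genotype.

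Of the next 8 by Kindlin-2 knockout signal, 4 differed by less than 1.5-fold and 1 was between 1.5 and 2-fold lower in the knockout. Those near Tspan14 (22 in Kindlin-2 knockout and 20 in floxed cells), B3galt1 (20 and 22), Dek (18 and 15) and Dars (17 and 22) were of the first kind, and that near the zinc finger gene Zfp273, over a member of 96 in the Rela knockout and 0 in Rela wild type, was of the second, with 13 in Kindlin-2 knockout and 22 in floxed cells. The others were higher in the Kindlin-2 knockout, with 16 and 8 inside the phosphatase subunit gene Ppp2r2b, 15 and 7 inside the receptor gene Lrp12, and 14 and 4 at the sixth member of the Nova1 stretch (log2 ratio 1.58). The member of the chromosome 14 cluster with 36 in the Rela knockout and 0 in Rela wild type also had a region, the weakest of the 15, with 7 in Kindlin-2 knockout and 1 in floxed cells. No other member of the 6 clusters of 3 overlapped that table.

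**Figure D5:**
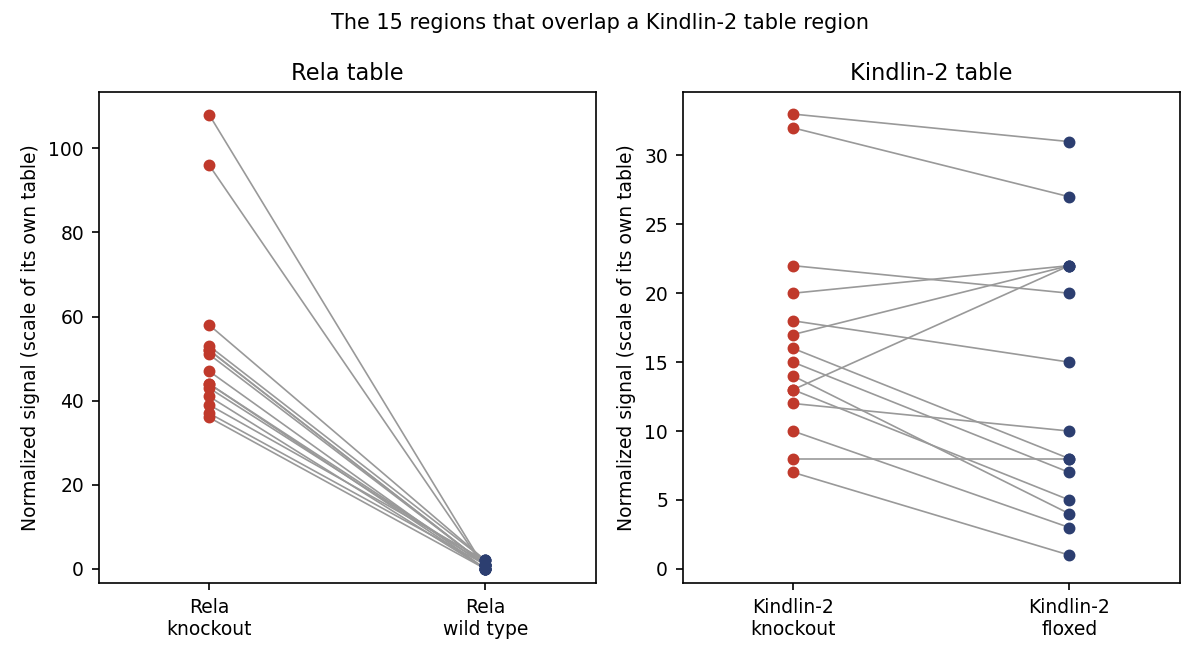
Signal at the 15 members that overlap a region of the Kindlin-2 table, with Rela knockout and wild-type 3T3 cells in one panel and Kindlin-2 knockout and floxed kidney fibroblasts in the other, each on the scale of its own table; lines join the same position. Kindlin-2 knockout signals run from 7 to 33 and floxed signals from 1 to 31.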

How the data were processed

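Values of 2 deposited tables were used, with 1 column per genotype. The build was mm10, and the tools, listed without their roles per the submitters' processing notes, were bedtools, DESeq2, deepTools, MACS2, Picard 1.136, STAR 2.4.2a, Trimmomatic 0.33 and FastQC. Per the labels' names for the tables, the authors deposited a background-corrected score, normalized within each table and rounded to whole numbers, called signal here. The sources used here do not say how the Tn5 offset, duplicates and background were treated. The deposited fraction of each region within a gene body was not used in a result, and the deposited distance of a region to its gene start, at most 7590 bp, was taken as it stands.

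The members and gene lists were chosen with earlier results of these data known. Regions with a mean signal of at least 1 entered comparisons as log2((knockout + 1)/(control + 1)), and a size of 1 or more (2-fold) was a call. This pseudocount understates ratios of weak regions. Promoter regions lay within 2500 bp of a start. The signal worth of 1 count was fitted to the frequency of values from 2 to 60 and explained 90.0% of the deviance for the Rela knockout (next best 14.9%) and 97.9% for wild type (31.3%). Intervals ignore error of the background correction. Gene bodies and promoter windows came from RefSeq, GRCm38.p6. Of 7632 matched symbols, 99.9% had overlapping bodies in both annotations. The lower coordinate of the body, whatever the strand, was within 10 bp for 51.8%, so a RefSeq window need not sit at the authors' gene start. Named regions were the 10 strongest members, the 5 clusters with most members, the 10 strongest Kindlin-2 overlaps, the 3 widest and narrowest, 5 on each side of each threshold, and the 10 highest and lowest nearest genes within 100 kb. Of planned sequences, those at the centres of members need a genome and were not used here. Values were computed with Python 3.11.15, pandas 2.3.3, NumPy 2.4.6, SciPy 1.17.1 and statsmodels 0.14.6, and drawn with Matplotlib 3.10.9.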

Additional observations from a re-analysis of the deposited data

How the results depend on the processing

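Of 47 alternatives over 7 results, 27 kept the value and 20 moved it. Kept means within the 95% interval or, for the number of members, within 1.5 times. Counts, widths and shares have no sign to reverse, and the sign of the members' own ratio is set by the rule. Only the median log2 ratio of the nearest gene-assigned region could have changed direction, and it stayed positive in every alternative. The number of members was 145 with a wild-type limit of 0, 826 with a limit of 5 and 211 with a knockout minimum of 50; it was 562 with a minimum of 25 and 314 after quantile scaling or scaling to equal totals. The median log2 ratio of members was 5.55 with a pseudocount of 0.5, 4.37 with 2 and 4.84 after quantile scaling, and their median width was 328 bp with a knockout minimum of 25 and 430 bp with 50. The share of members near another was 6.68% at 20 kb, 13.4% at 50 kb, 24.7% at 200 kb and 50.1% at 1000 kb; at 100 kb it was 11.7% with a wild-type limit of 0, 22.8% with 5 and 10.9% with a knockout minimum of 50. For the nearest gene-assigned region, the median log2 ratio was 0.28 when protein-coding promoters alone were used and 0.40 without members of chromosomes 3, 8 and 12. The share called higher was 21.6% and 28.9% under these changes, where 11.1% of all protein-coding promoters and 12.4% of gene-assigned regions outside those chromosomes were called higher. It was 29.8% with each chromosome's median subtracted, against 13.1% of all gene-assigned regions treated alike. The promoter alternative, counting each nearest region once and leaving out those chromosomes were chosen after seeing the data. The share overlapping the Kindlin-2 table stayed between 3.20% and 4.14%. The GC share and AP-1 motif share of the members need a genome and were not run. No paired analysis was possible because each genotype had 1 column. With a wild-type signal of 2 standing for 3 counts, depth limits every ratio of the members.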
